A study of Mus musculus with 8 samples.

Results

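The genes described here are 10 genes of epithelial and mesothelial cells: the keratins Krt19, Krt8, Krt18 and Krt7, the mesothelial genes Msln and Upk3b, and Aqp1, Dsp, Lgals3 and Wfdc2. They were chosen by name from 54532 genes, with earlier results of these data known. Those results had Krt19 at the head of the genes higher, and Wfdc2 among the genes lower, in the libraries labelled Cavb3 KO. For that reason the differences between the genotypes are given below as a description of the members. Where a fit of this contrast is given, its result is not read as independent evidence for them. All 10 were present in the tables, and 5 of them (Krt19, Aqp1, Lgals3, Wfdc2 and Dsp) passed the filter for testing, which asked for 4 or more libraries with an FPKM of 1 or higher. FPKM is the number of reads or fragments on a gene scaled by its exon length and by the depth of the library.

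RNA came from cultured primary brain microvascular endothelial cells, which line the small vessels of the brain and build the blood-brain barrier. There were 4 libraries labelled Cavb3 KO, from mice deficient in Cavβ3, an auxiliary subunit of voltage-gated calcium channels, and 4 wild type libraries. The design text of the series calls the replicates of each genotype biologically independent, and strain, age and the kind of deletion were not among the information used here. The medium, the same for all cultures, held serum of fetal calves, heparin and a fibroblast growth factor. The implied depth was 23491645 to 33813070 assigned reads or fragments per library.

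Cacnb3, the gene of Cavβ3, did not separate the labels. It stood at 1.70, 2.09, 2.47 and 1.77 FPKM in the libraries labelled Cavb3 KO, replicates 1 to 4, and at 3.38, 3.56, 1.12 and 0.980 FPKM in the wild type libraries (exact two-sided permutation test of the mean FPKM over 70 splits, p = 0.714). The log2 difference was -0.63 for replicates 1 and 2 and 0.60 for replicates 3 and 4. Every direction between the genotypes below therefore rests on the label of the library. The libraries of replicates 3 and 4 also stood apart from those of replicates 1 and 2 in both genotypes, with 5419 of 11864 genes tested, or 45.7%, different between these sets in limma. The labels name no batch for this split. In bulk RNA, a change in the number of cells of a type and a change in RNA per cell cannot be told apart, and this holds for every value below.

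Keratins are the intermediate filament proteins of epithelia. A filament is built from pairs of an acidic type I keratin, such as Krt18 and Krt19, and a basic type II keratin, such as Krt7 and Krt8, and in simple epithelia these 4 genes are the usual ones. Desmoplakin, the product of Dsp, anchors such filaments to desmosomes. Msln encodes mesothelin, a surface protein of the mesothelium that lines body cavities, and Upk3b, a uroplakin gene, is another marker of it. Aqp1 encodes a water channel found in the choroid plexus and in many endothelia outside the brain, Lgals3 encodes galectin-3, a lectin of epithelia and macrophages, and Wfdc2 encodes a secreted protein of epithelia with WAP domains.

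RefSeq start sites on GRCm38.p6 were found for 8 of the 10 genes, all except Krt19 and Msln. Shown here are the 250 bases before the start of the 4 genes whose levels separated the labelled genotypes and that had an entry. RefSeq and GENCODE starts differ for some genes. The bases are read 5′ to 3′ on the strand of the gene. The decimal in the chromosome labels below is no part of the chromosome name. Capitals mark a match on either strand to GGGCGG, the GC box, or to CAGGTG, the E-box letters that ZEB and SNAIL factors are known to read.
Dsp promoter, chr13.0:38151044-38151293, plus strand: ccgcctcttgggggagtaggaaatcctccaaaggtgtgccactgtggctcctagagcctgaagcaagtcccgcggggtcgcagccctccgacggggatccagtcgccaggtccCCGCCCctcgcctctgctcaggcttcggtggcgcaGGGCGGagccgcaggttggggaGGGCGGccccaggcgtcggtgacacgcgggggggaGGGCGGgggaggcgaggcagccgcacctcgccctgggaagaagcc
Lgals3 promoter, chr14.0:47373610-47373859, plus strand: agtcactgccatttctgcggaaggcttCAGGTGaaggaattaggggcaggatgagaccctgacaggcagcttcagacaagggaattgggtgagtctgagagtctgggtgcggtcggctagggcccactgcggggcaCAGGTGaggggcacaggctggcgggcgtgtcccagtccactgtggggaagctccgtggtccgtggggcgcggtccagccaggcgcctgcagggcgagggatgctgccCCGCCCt
Aqp1 promoter, chr6.0:55336049-55336298, plus strand: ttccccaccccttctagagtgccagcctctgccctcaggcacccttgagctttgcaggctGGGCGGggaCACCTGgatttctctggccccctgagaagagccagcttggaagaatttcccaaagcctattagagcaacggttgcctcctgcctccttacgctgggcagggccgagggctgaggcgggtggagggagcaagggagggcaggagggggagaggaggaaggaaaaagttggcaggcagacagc
Wfdc2 promoter, chr2.0:164562465-164562714, plus strand: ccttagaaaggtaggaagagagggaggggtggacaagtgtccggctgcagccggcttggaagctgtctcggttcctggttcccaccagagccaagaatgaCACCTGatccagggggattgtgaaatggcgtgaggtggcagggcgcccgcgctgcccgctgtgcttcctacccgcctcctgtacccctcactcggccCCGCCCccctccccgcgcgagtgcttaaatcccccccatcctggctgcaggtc
The GC box letters occurred in all 4 of these windows, 4 times in that of Dsp, and in 5 of the 8 windows of the 10 genes, against 32.7% of all 32851 start sites in the table. The E-box letters occurred in 6 of the 8 windows, those of Krt8, Krt18 and Krt7 included, against 17.2% of all start sites. Neither TATAAA (12.4% of all start sites) nor TGANTCA of AP-1 (6.75%) occurred in any of the 8, and GGAATG of TEAD factors (12.6%) occurred in 1, that of Upk3b. The letters do not overlap each other in the windows shown, and a match is no evidence of binding.

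Krt19 was the most abundant of the 10 genes, with place 903 of 54532 by its mean FPKM, and was expressed in every library. It stood at 68.2, 78.7, 88.7 and 55.9 FPKM in the libraries labelled Cavb3 KO, replicates 1 to 4. In the wild type libraries it stood at 24.6, 27.6, 33.1 and 37.3 FPKM. The lowest of the libraries labelled Cavb3 KO lay above the highest wild type library, and the mean was 72.9 ± 14.1 against 30.7 ± 5.62 FPKM (SD, n = 4 each). The ratio of the means was 2.81 for replicates 1 and 2 and 2.06 for replicates 3 and 4. Between 1245 and 4937 reads were recovered per library. Krt19 (ENSMUSG00000020911) lies on chromosome 11, 100140810 to 100148665, minus strand (GRCm38, GENCODE M21), and no exon of another gene overlaps it there.

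**Figure D1:**
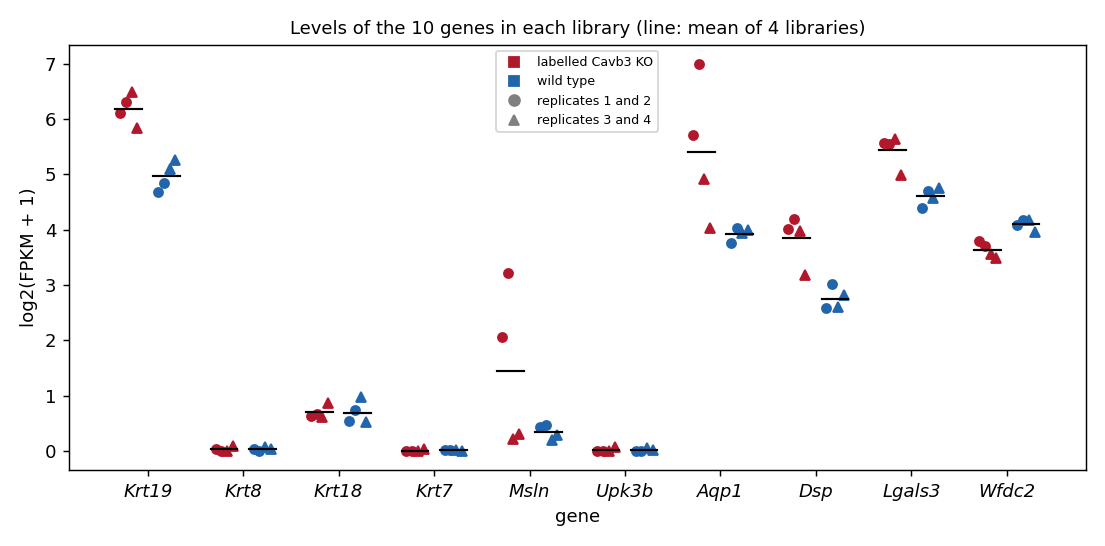
Level of each of the 10 genes on the log2(FPKM + 1) scale, with 4 libraries labelled Cavb3 KO left of 4 wild type libraries, circles for replicates 1 and 2, triangles for replicates 3 and 4, and a line at the mean of each group. Krt19, Aqp1, Dsp and Lgals3 sit higher and Wfdc2 lower in the libraries labelled Cavb3 KO, while Krt8, Krt7 and Upk3b lie near 0 in all 8.

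The other simple-epithelial keratins did not accompany Krt19. Krt18 stood at 0.544, 0.597, 0.528 and 0.8294 FPKM in the libraries labelled Cavb3 KO and at 0.460, 0.669, 0.953 and 0.429 FPKM in the wild type libraries, so that the groups overlapped throughout. Its mean was 0.625 ± 0.140 against 0.628 ± 0.242 FPKM (SD, n = 4 each), from 16 to 39 reads per library. Krt8 had 4 reads in all in the libraries labelled Cavb3 KO and 5 in the wild type libraries. Its highest value was 0.0652 FPKM, and the 3 libraries without a read allow up to 0.0646 FPKM (3 reads, counting error only). Krt7 had 3 reads in all in the libraries labelled Cavb3 KO and 4 in the wild type libraries, with a highest value of 0.0181 FPKM. None of these 3 keratins was abundant enough to be tested. They lie 2.77 to 3.38 megabases from Cacnb3 on chromosome 15: Krt7 at 101411043 to 101430313, Krt8 at 101996698 to 102004482 and Krt18 at 102028180 to 102032027.

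The lack of a type II partner extended to the whole family. The 26 type II keratin genes summed to 0.0540 to 0.337 FPKM in the libraries labelled Cavb3 KO and to 0.101 to 0.183 FPKM in the wild type libraries. The highest of them was Krt80, at no more than 0.204 FPKM in any library, and 12 had no read in any library. The 27 type I genes summed to 59.5 to 91.1 FPKM against 27.6 to 39.6 FPKM, and without Krt19 to 2.36 to 3.63 FPKM against 2.38 to 4.07 FPKM. Among the other type I genes only Krt20 reached a mean of 1 FPKM, and it lay the other way from Krt19, at 0.708 FPKM on average in the libraries labelled Cavb3 KO and 1.40 FPKM in the wild type libraries. Vim, the type III intermediate filament gene of endothelial and mesenchymal cells, was at 257 to 345 FPKM against 317 to 458 FPKM, several times the level of Krt19 in each library.

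**Figure D2:**
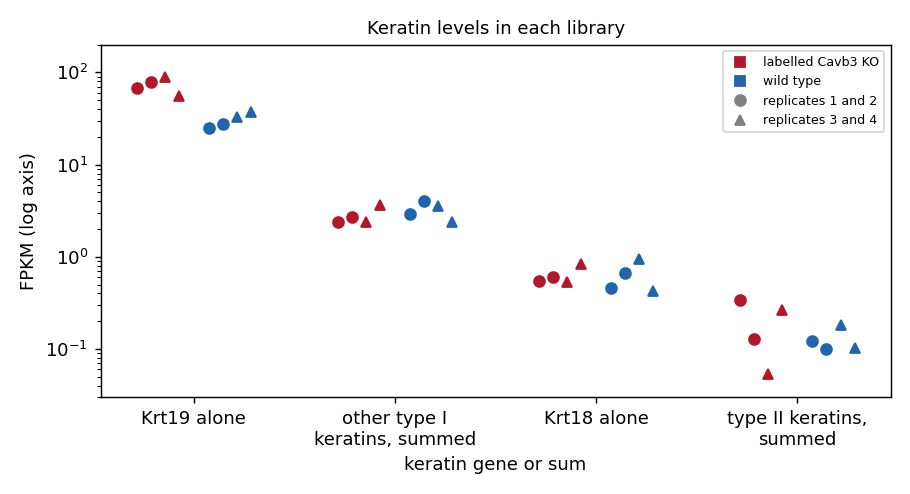
FPKM on a log axis of Krt19, of the summed other type I keratins, of Krt18 and of the summed type II keratins in each library, libraries labelled Cavb3 KO left of wild type. Krt19 lies at 24.6 to 88.7 FPKM and the type II sum at 0.0540 to 0.337 FPKM, and the ratio of all type I to all type II keratins runs from 200 to 1687.

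Dsp was expressed at a moderate level and followed Krt19. It stood at 15.2, 17.3, 14.8 and 8.10 FPKM in the libraries labelled Cavb3 KO and at 4.97, 7.10, 5.03 and 6.08 FPKM in the wild type libraries. Replicate 4 labelled Cavb3 KO was the closest to the wild type libraries and still above all of them. The mean was 13.8 ± 3.98 against 5.79 ± 1.01 FPKM (SD, n = 4 each), and the ratio of the means was 2.69 in the replicates 1 and 2 and 2.06 in the replicates 3 and 4. Dsp lies on chromosome 13, 38151294 to 38198577. An antisense gene, Gm10129, overlaps its exons and was at no more than 0.170 FPKM.

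The desmosomal cadherins that desmoplakin is linked to in epithelia were near 0. Dsg2 reached at most 0.0179 FPKM, Dsc2 0.160 FPKM and Dsc3 0.0136 FPKM in any library, and the plakophilin Pkp1 0.0445 FPKM. Other plakophilin genes, named here with their values known, were expressed: Pkp2, which also serves in desmosomes, at 9.76 to 12.1 FPKM in the libraries labelled Cavb3 KO and at 10.9 to 12.9 FPKM in the wild type libraries, and Pkp4 at 21.6 to 26.5 against 17.7 to 22.2 FPKM. Jup, the gene of plakoglobin, which endothelial junctions also use, was present at 41.8 to 58.0 FPKM in the libraries labelled Cavb3 KO and at 53.4 to 62.0 FPKM in the wild type libraries. Of the 18 genes listed as keratin partners and desmosome genes, 12 were tested. None of the 12 passed between the genotypes in limma, with or without the replicate set as a term, and their median log2 difference was -0.09 against -0.02 over all 11864 genes. Perp, a desmosome-associated target of p53 named here after a look at its values, stood at 27.1, 43.8, 26.3 and 13.6 FPKM in the libraries labelled Cavb3 KO and at 15.3, 16.8, 14.1 and 17.1 FPKM in the wild type libraries. Its replicate 4 labelled Cavb3 KO lay below every wild type library.

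Lgals3 was the other gene with a pattern close to that of Krt19. It stood at 46.2, 45.9, 48.9 and 30.7 FPKM in the libraries labelled Cavb3 KO and at 20.1, 24.98, 22.9 and 26.0 FPKM in the wild type libraries, without overlap. The first 3 libraries labelled Cavb3 KO lay within 3 FPKM of each other and replicate 4 well below them. The mean was 42.9 ± 8.23 against 23.5 ± 2.59 FPKM (SD, n = 4 each), and the ratio was 2.04 in the first pair of replicates and 1.63 in replicates 3 and 4. Lgals3 lies on chromosome 14, 47367751 to 47386160.

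Of the 8 galectin genes, 5 reached a mean of 1 FPKM. Lgals1, a galectin of endothelial and mesenchymal cells, was the most abundant, at 148 to 400 FPKM in the libraries labelled Cavb3 KO and at 181 to 269 FPKM in the wild type libraries, which overlapped. Lgals9 was at 15.8 to 21.1 against 18.4 to 24.8 FPKM, and Lgals8 at 10.2 to 16.2 against 12.1 to 17.4 FPKM. Lgals2 was the lowest of the 5, at 2.25 to 4.67 FPKM in the libraries labelled Cavb3 KO and at 1.08 to 3.56 FPKM in the wild type libraries. Between the replicate sets the family went both ways: Lgals1, Lgals9 and Lgals8 were lower in replicates 3 and 4 (log2 differences of -0.66, -0.37 and -0.44), and Lgals2 was higher (0.64), as was the sparser Lgals4 (0.50). The limma adjusted p of these 5 genes lay between 0.00112 and 0.0157, beside 45.7% of all genes that passed there, 25.8% lower and 19.8% higher. Lgals3 did not pass there (-0.06, adjusted p = 0.759), and whether the genes differ in that shift was not tested.

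Aqp1 varied more among the libraries labelled Cavb3 KO than any other tested member. It stood at 51.1, 127, 29.0 and 15.3 FPKM in these libraries and at 12.5, 15.3, 14.3 and 15.0 FPKM in the wild type libraries. Replicate 2 labelled Cavb3 KO was by far the highest, and replicate 4 lay level with the highest wild type library. The mean was 55.5 ± 49.6 against 14.3 ± 1.27 FPKM (SD, n = 4 each). The ratio of the means was 3.89, and 2.23 without replicate 2 labelled Cavb3 KO, which was left out after the values were seen. The log2(FPKM + 1) difference was 2.46 within replicates 1 and 2 and 0.50 within replicates 3 and 4. The interaction that compares these differences was -1.96 (95% confidence interval -3.41 to -0.50) and did not pass over all genes (limma, unadjusted p = 0.0157, adjusted p = 0.629). Aqp1 lies on chromosome 6, 55336432 to 55348555. Of the other aquaporin genes only Aqp5 reached a mean of 1 FPKM, at 1.45, 3.15, 1.201 and 0.475 FPKM in the libraries labelled Cavb3 KO and at 0.636, 1.34, 0.662 and 0.667 FPKM in the wild type libraries.

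Wfdc2 ran against the other 4 tested members. It stood at 12.8, 12.1, 10.8 and 10.2 FPKM in the libraries labelled Cavb3 KO and at 15.9, 17.1, 17.0 and 14.5 FPKM in the wild type libraries. All 4 libraries labelled Cavb3 KO lay below all wild type libraries, and the coefficient of variation, 10.1% in the libraries labelled Cavb3 KO and 7.33% in the wild type libraries, was the smallest of the 5 tested members in each group. The mean was 11.5 ± 1.16 against 16.1 ± 1.18 FPKM (SD, n = 4 each), and the ratio was 0.753 in the first pair of replicates and 0.669 in replicates 3 and 4. Wfdc2 lies on chromosome 2, 164562413 to 164568510. Its relative Wfdc1, the only other WAP domain gene with a mean of at least 1 FPKM, was at 3.79 to 5.02 FPKM in the libraries labelled Cavb3 KO and at 5.66 to 6.80 FPKM in the wild type libraries, likewise without overlap.

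Msln was high in a pair of libraries only. It stood at 3.17, 8.34, 0.160 and 0.242 FPKM in the libraries labelled Cavb3 KO and at 0.347, 0.379, 0.150 and 0.219 FPKM in the wild type libraries. Replicates 1 and 2 labelled Cavb3 KO were the high ones, and replicates 3 and 4 lay between 0.150 and 0.242 FPKM in both genotypes. The mean was 2.98 ± 3.84 against 0.274 ± 0.108 FPKM (SD, n = 4 each), and the groups overlapped. The ratio of the means was 10.9, and 15.8 for replicates 1 and 2 against 1.09 for replicates 3 and 4. Without replicate 2 labelled Cavb3 KO, left out after the values were seen, it was 4.35. With an FPKM of at least 1 in fewer than 4 libraries, Msln was not tested. Its reads could not be recovered as whole numbers with the exon length of GENCODE M21, so its depth is unknown. Msln lies on chromosome 17, 25748613 to 25754378.

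Upk3b was at the limit of detection. It had 4 reads in replicate 4 labelled Cavb3 KO, 4 in wild type replicate 3, 1 in wild type replicate 4 and none in the other 5 libraries, which allow up to 0.0359 FPKM. Other mesothelial genes were named for values near 0. Wt1 reached at most 0.0259 FPKM, Lrrn4 0.0159 FPKM, Upk1b 0.0408 FPKM, Muc16 0.0176 FPKM and Bnc1 0.0550 FPKM. Of the 17 listed mesothelial genes, 12 stayed below 1 FPKM in every library. The sum of the list without Msln and Upk3b was 30.7 to 101 FPKM in the libraries labelled Cavb3 KO and 41.9 to 54.8 FPKM in the wild type libraries. Nearly all of it came from Ezr, Pdpn, Slc39a8 and Gpm6a, which endothelial or many other cells can express, and these 4 had no common pattern. Pdpn, a mucin-type glycoprotein of mesothelium and lymphatic endothelium, was at 16.5, 36.9, 9.94 and 4.54 FPKM in the libraries labelled Cavb3 KO and at 10.7, 12.2, 6.40 and 7.66 FPKM in the wild type libraries, highest in the libraries where Msln was highest. It was also lower in replicates 3 and 4 than in the other replicates (log2 difference -1.18, limma adjusted p = 0.0249). Ezr, which encodes the membrane linker ezrin, was at 34.2, 54.3, 31.3 and 17.4 FPKM against 21.6, 33.1, 32.6 and 35.2 FPKM. Slc39a8, a metal transporter gene, was level, at 5.48 to 6.35 FPKM against 5.30 to 6.35 FPKM, and Gpm6a averaged 2.32 ± 0.835 FPKM in the libraries labelled Cavb3 KO and 4.21 ± 0.834 FPKM in the wild type libraries (SD, n = 4 each).

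Across the 10 genes, the labelled genotypes did not overlap for 5, the 5 tested ones, with 4 higher and 1 lower in the libraries labelled Cavb3 KO. The same held for 4.14% of all genes tested, 1.64% higher and 2.5% lower. Aqp1 was free of overlap only by 15.33 FPKM in replicate 4 labelled Cavb3 KO against 15.32 FPKM in wild type replicate 2. That gap lay within counting error (95% interval 14.4 to 16.3 FPKM for the former). As the members were picked from this contrast, nothing is read from that count. In the limma fit on genotype alone, 0 of 11864 genes (0%) passed an adjusted p of 0.05, the 5 members included. There were 647 genes with an unadjusted p under 0.05, and limma-voom on recovered reads also called 0. With the replicate set as a term, 75 genes (0.632%) passed, 31 higher (0.261%) and 44 lower (0.371%). Krt19 was the 1 member among the higher and Wfdc2 the 1 among the lower, and since both were chosen from this contrast their passing is no independent evidence. A fit that blocked on the replicate number passed 0 genes (0%). The interaction of genotype and replicate set was called for 1 gene (0.00843%), or 58 without wild type replicate 2, and for none of the 5 members, whose estimates were -0.47 for Krt19, -0.36 for Lgals3, -0.43 for Dsp and -0.15 for Wfdc2 beside the value of Aqp1 above. The 95% confidence intervals were wide, -1.16 to 0.22 for Krt19 and -1.33 to 0.47 for Dsp.

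Krt19, Dsp and Lgals3 had like patterns over the 8 libraries. After the mean of each replicate set had been subtracted from log2(FPKM + 1), Dsp had a Pearson correlation of 0.988 with Krt19 over the 8 libraries, place 6 of 11863 genes compared, and Lgals3 one of 0.985, place 10. Aqp1 followed Krt19 less closely (0.898, place 143), and Wfdc2 ran opposite (-0.862). With the levels as they are, Dsp was at 0.916 (place 34), Lgals3 at 0.964 (place 10), Aqp1 at 0.750 (place 265) and Wfdc2 at -0.858. All of these values span both labelled genotypes, and subtracting the set means keeps the difference between the genotypes. That difference thus enters each likeness, by a share that was not tested. Since the genotype contrast served to choose members, a high place is no independent evidence. Within the libraries labelled Cavb3 KO, all 4 of Krt19, Dsp, Lgals3 and Aqp1 were lowest in replicate 4. Krt19 and Lgals3 were highest in replicate 3, and Dsp and Aqp1 in replicate 2. Within the wild type libraries, all 4 of these genes were lowest in replicate 1. There Dsp and Aqp1 were highest in replicate 2, and Krt19 and Lgals3 in replicate 4. For Dsp, wild type replicates 1 and 3 lay close, at 4.97 and 5.03 FPKM.

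**Figure D3:**
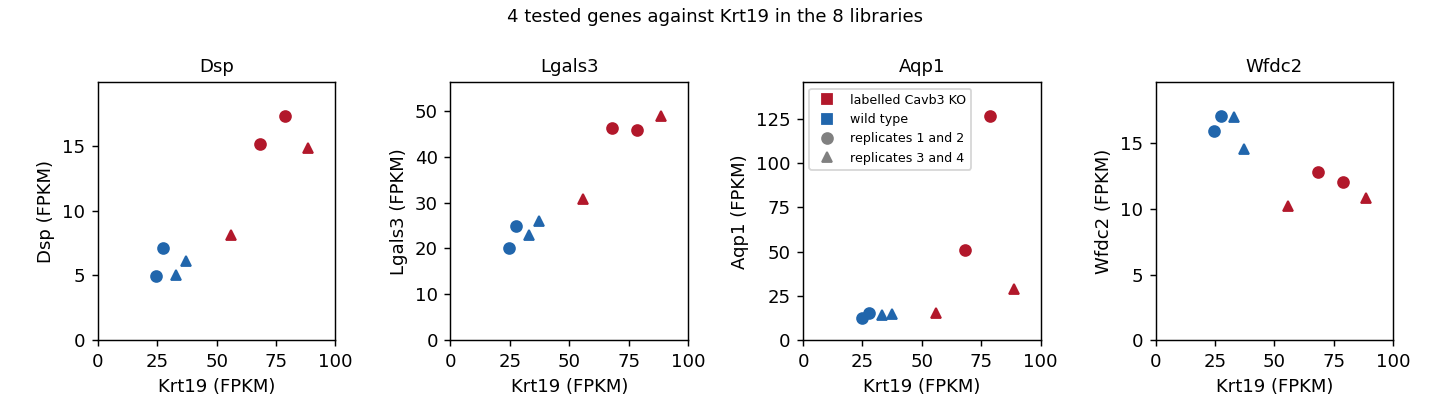
FPKM of Dsp, Lgals3, Aqp1 and Wfdc2 against that of Krt19 in the 8 libraries, red for libraries labelled Cavb3 KO and blue for wild type. Dsp and Lgals3 are highest in the 3 libraries with Krt19 at 68.2 FPKM or more, Aqp1 is spread from 15.3 to 127 FPKM among the libraries labelled Cavb3 KO, and Wfdc2 is lower in them.

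The genes most like Krt19 by the same measure were Atp1b1 (0.994), Ereg (0.993), 2310030G06Rik (0.992), Rfk (0.989) and Traf4 (0.989). Atp1b1, a subunit of the sodium-potassium pump, was at 109, 143, 188 and 115 FPKM in the libraries labelled Cavb3 KO and at 46.8, 52.8, 69.4 and 83.7 FPKM in the wild type libraries. Ereg, which encodes the EGF receptor ligand epiregulin, was at 40.1, 48.4, 69.1 and 46.3 FPKM against 20.1, 22.1, 33.1 and 39.3 FPKM. Without subtraction of the set means, the 5 closest were 2310030G06Rik (0.985), Fam83h (0.983), Gm7160 (0.979), Rassf7 (0.979) and Traf4 (0.978). Fam83h, whose protein is known to bind keratin filaments and casein kinase 1, was at 4.96, 5.57, 5.94 and 3.78 FPKM in the libraries labelled Cavb3 KO and at 1.54, 2.42, 2.19 and 2.73 FPKM in the wild type libraries. Like Krt19, Dsp and Lgals3, it was lowest in replicate 4 among the libraries labelled Cavb3 KO.

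The genes most like Msln were different ones. With the levels as they are, they were Fdft1 (0.981) and Idi1 (0.971), enzymes of sterol synthesis, the kinase gene Mapk13 (0.968), Mal (0.964) and Nup62 (0.956). With the set means subtracted, they were Fdft1 (0.970), Paqr5 (0.969), Ndrg2 (0.955), Mapk13 (0.953) and Idi1 (0.953). Fdft1 was at 11.3, 13.0, 8.42 and 9.10 FPKM in the libraries labelled Cavb3 KO and at 8.60, 9.36, 8.29 and 8.67 FPKM in the wild type libraries, so its range was far narrower than that of Msln. Mapk13 was at 3.18, 6.80, 1.75 and 1.18 FPKM against 1.41, 1.91, 1.46 and 1.64 FPKM. Among the members, Aqp1 was the closest to Msln (0.949 with the set means subtracted, place 6 of 11864, and 0.938 without, place 8). Aqp1 and Msln both peaked in replicate 2 labelled Cavb3 KO. Upk3b had too few reads for a likeness to be read.

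The split between replicates 3 and 4 and replicates 1 and 2, which was not used to choose the genes, left the 5 tested members without a call, beside the 45.7% of all genes that passed, 19.8% higher and 25.8% lower. Krt19 was at 53.7 ± 25.3 FPKM in replicates 3 and 4 and at 49.8 ± 27.7 FPKM in replicates 1 and 2 (SD, n = 4 each, both genotypes), with a log2 difference of 0.18 (95% confidence interval -0.19 to 0.55, limma adjusted p = 0.388). Lgals3 was at 32.1 ± 11.6 against 34.3 ± 13.7 FPKM (-0.06, adjusted p = 0.759) and Dsp at 8.497 ± 4.38 against 11.1 ± 6.01 FPKM (-0.31, adjusted p = 0.230). Aqp1 was at 18.4 ± 7.09 against 51.4 ± 53.1 FPKM (-0.90, interval -1.96 to 0.16, adjusted p = 0.140) and Wfdc2 at 13.1 ± 3.18 against 14.5 ± 2.42 FPKM (-0.14, adjusted p = 0.123). This fit counts the 2 libraries of a replicate number as independent. With the replicate number as the unit, 2 numbers against 2, it called 5082 genes and again none of the 5 members, with adjusted p from 0.0663 for Aqp1 to 0.637 for Lgals3. Without replicate 4 labelled Cavb3 KO, Krt19 passed (0.36, adjusted p = 0.0133) and the estimate of Lgals3 was 0.10, and without wild type replicate 3, Wfdc2 passed (-0.20, adjusted p = 0.0461).

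Of the 19 pan-epithelial genes listed, 3 were tested and Muc1 and Epcam moved with this split, beside 45.7% of all genes. Muc1, which encodes the membrane mucin of simple epithelia, was at 27.1 and 50.7 FPKM in replicates 3 and 4 labelled Cavb3 KO and at 29.2 and 21.0 FPKM in wild type replicates 3 and 4. In replicates 1 and 2 it was at 4.21 and 2.56 FPKM in the libraries labelled Cavb3 KO and at 2.18 and 1.83 FPKM in the wild type libraries. The log2 difference between the sets was 3.13 ± 0.21 (SE, limma adjusted p = 0.000272), and all 4 libraries of replicates 3 and 4 lay above the others. Epcam, an epithelial adhesion gene, rose by 1.502 ± 0.195 (adjusted p = 0.0013), with 5.08 ± 2.11 FPKM in replicates 3 and 4 and 1.10 ± 0.533 FPKM in replicates 1 and 2 (SD, n = 4 each). Foxj1, a regulator of motile cilia listed with ependyma, rose by 2.19 ± 0.21 (adjusted p = 0.00061), with 4.27 ± 1.72 against 0.1004 ± 0.0141 FPKM. Cldn4, a claudin of epithelia, did not pass (0.41 ± 0.15, adjusted p = 0.0537), but did with the replicate number as the unit (adjusted p = 0.0411). Untested genes of the list went both ways: Spint1 averaged 0.758 FPKM in replicates 3 and 4 and 0.977 FPKM in replicates 1 and 2, and, named with their values known, Esrp2 averaged 0.555 against 0.821 FPKM and Ovol1 0.388 against 0.102 FPKM. None of Muc1, Epcam, Cldn4 and Foxj1 passed between the genotypes in either fit.

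**Figure D4:**
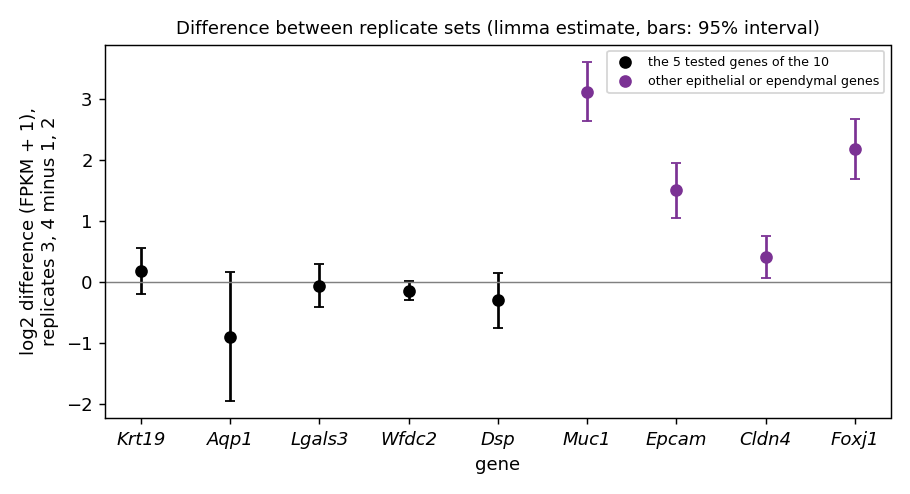
Limma estimate of the log2(FPKM + 1) difference, replicates 3 and 4 minus replicates 1 and 2, with 95% intervals, for the 5 tested members in black and for Muc1, Epcam, Cldn4 and Foxj1 in purple. The intervals of the 5 members include 0, while Muc1, Epcam and Foxj1 lie between 1.5 and 3.13.

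Marker lists of cells that such a culture could hold give the setting of these values. Of 19 pan-epithelial genes, 14 stayed below 1 FPKM in every library, and Cdh1, the gene of E-cadherin, reached at most 0.223 FPKM, Esrp1 0.0135 FPKM, Grhl2 0.0558 FPKM and Trp63 0.0211 FPKM. The list summed to 11.4 to 68.0 FPKM in the libraries labelled Cavb3 KO and to 9.38 to 44.7 FPKM in the wild type libraries, with Muc1 as its largest part in replicates 3 and 4. Of the 3 tested genes, 2 were higher in replicates 3 and 4 and 0 were lower. The part of epithelial cells in the levels of Krt19, Dsp and Lgals3 was not tested.

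The choroid plexus list holds 4 of the members. Some of its genes were named for values near 0. Ttr, the gene of transthyretin, reached at most 0.0692 FPKM, Kl 0.0639 FPKM, Otx2 0.0706 FPKM and Kcnj13 0.201 FPKM. Others, named here with their values known, were sparse but higher: Folr1 reached 0.579 FPKM, Prlr 0.553 FPKM and Kcne2 0.41 FPKM. Of the 18 genes, 14 stayed below 1 FPKM. Without the members the list summed to 21.7 to 27.0 FPKM in the libraries labelled Cavb3 KO and to 25.4 to 31.0 FPKM in the wild type libraries, nearly all of it from Enpp2 and Clic6. Clic6, an intracellular chloride channel gene, was at 10.0, 10.5, 9.35 and 9.23 FPKM in the libraries labelled Cavb3 KO and at 13.5, 14.9, 12.5 and 13.2 FPKM in the wild type libraries. It thus lay on the side of Wfdc2. These were the 2 of 4 tested genes of the list that fell with the replicate set as a term (Clic6 by 0.43 on the log2 scale, limma adjusted p = 0.0404). Over all genes tested, 0.371% fell in that fit. The list had no common direction. Enpp2 was level, at 11.4 to 16.0 against 11.9 to 17.2 FPKM, and Aqp1 was higher in the libraries labelled Cavb3 KO. So was the sparse Folr1, at 0.425 ± 0.119 against 0.144 ± 0.0239 FPKM (SD, n = 4 each). For Wfdc2 the genotype contrast had served to choose the gene. Neither Clic6 nor Wfdc2 passed in the fit on genotype alone or with the replicate block, where no gene did. The same holds for every gene named below as passing with the replicate set as a term.

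Of the 7 tested genes of the leptomeninges and of the arachnoid barrier, 2 passed between the genotypes with the replicate set as a term, and 5 did not. The list of 20 summed to 125 to 181 FPKM in the libraries labelled Cavb3 KO and to 76.0 to 121 FPKM in the wild type libraries. Most of the sum was Slc6a12, a betaine and GABA transporter, at 64.0, 87.7, 103 and 89.3 FPKM against 25.4, 29.9, 59.4 and 58.7 FPKM, and Alcam, an adhesion molecule. These were the 2 of 7 tested genes that rose with the replicate set as a term (limma adjusted p = 0.0474 and 0.0404), and 0 fell. Over all genes tested, 0.261% rose in that fit. Slc6a12 and Alcam were also higher in replicates 3 and 4 than in replicates 1 and 2 (log2 differences of 0.71 and 0.42, limma adjusted p = 0.0115 and 0.00205). The next in level were Foxc1, a forkhead factor of meninges and vessels, at 8.17 to 16.1 against 11.9 to 17.8 FPKM, and Ranbp3l at 4.38 to 13.4 against 5.58 to 7.33 FPKM, and neither passed between the genotypes. Ogn reached 5.41 FPKM, Ptgds 3.92 FPKM and Foxd1 2.45 FPKM in their highest libraries, while 12 of the 20 genes stayed below 1 FPKM. Among these 12, Slc47a1 reached at most 0.112 FPKM, Dpp4 0.0667 FPKM and Gjb2 0.0175 FPKM, and Slc22a6 had no read in any library. Fibroblast genes summed to 17.0 to 30.1 against 9.13 to 17.5 FPKM, led by Twist1, a transcription factor of mesenchyme, at 11.2, 13.8, 21.7 and 18.9 FPKM in the libraries labelled Cavb3 KO and at 4.33, 5.71, 9.36 and 10.4 FPKM in the wild type libraries. Twist1 was the 1 of 2 tested fibroblast genes that rose with the replicate set as a term (1.07 on the log2 scale, limma adjusted p = 0.0404). Like Slc6a12 and Alcam, it was among the 19.8% of all genes higher in replicates 3 and 4 (0.76, limma adjusted p = 0.00148). Col1a1 reached at most 4.85 FPKM, and Lum and Tcf21 had no read. How far such cells contribute to the levels of Krt19 and Dsp was not tested.

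The remaining lists were low. Macrophage and microglia genes, which bear on Lgals3, summed to 3.801 to 7.73 FPKM in the libraries labelled Cavb3 KO and to 3.76 to 10.0 FPKM in the wild type libraries. Most of that was Cd68, and Tyrobp, C1qa, C1qb and C1qc stayed at or below 0.109 FPKM. Pericyte and smooth muscle genes summed to 6.73 to 19.1 against 5.55 to 31.7 FPKM, led by Acta2 in replicates 1 and 2, and Kcnj8 reached 0.0157 FPKM. Ependymal genes other than Foxj1 stayed below 1 FPKM. Endothelial genes, in contrast, were abundant: the 23 listed genes all had a mean of at least 1 FPKM and summed to 2808 to 3304 FPKM in the libraries labelled Cavb3 KO and to 3275 to 4182 FPKM in the wild type libraries. Cdh5, the gene of VE-cadherin, was at 497 to 555 against 504 to 679 FPKM. The sums overlapped between the genotypes. The median log2 difference over the 23 genes was -0.29 between the genotypes, against -0.02 over all genes tested, and -0.29 between the replicate sets, against -0.04. With the replicate set as a term 5 of the 23 fell in the libraries labelled Cavb3 KO, beside 0.371% of all genes. None of the 5 passed with the replicate block. In replicates 3 and 4, 13 of the 23 were lower and 3 higher than in replicates 1 and 2, beside 25.8% and 19.8% of all genes.

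**Figure D5:**
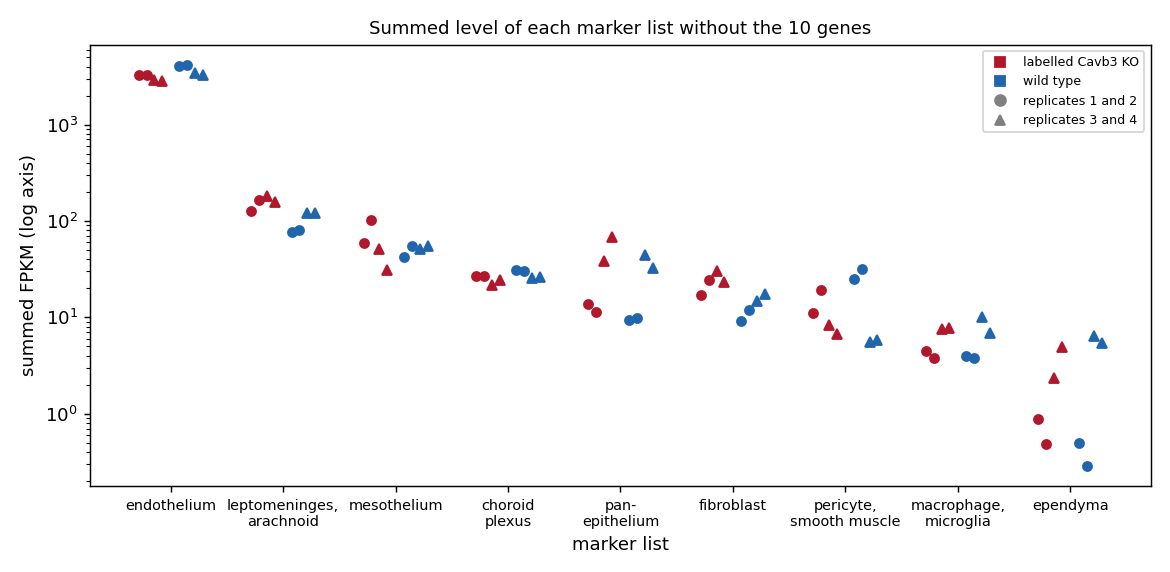
Summed FPKM of each marker list in each library on a log axis, without the 10 genes, libraries labelled Cavb3 KO left of wild type. The endothelial sum is at least 2808 FPKM in every library, and the pan-epithelial and ependymal sums are higher in replicates 3 and 4 (triangles) than in replicates 1 and 2 (circles) in both genotypes.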

How the data were processed

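Per the labels' protocols, an RNeasy kit gave the RNA and an NEBNext Ultra kit the libraries. The submitters' processing notes name HISAT2 2.0.5 as aligner. Build, annotation, counter and strandedness: not given in the sources used here. What the authors deposited is one FPKM table for each library, with 54532 genes under Ensembl IDs and no pooling of replicates. The unit was read from the values: FPKM times GENCODE M21 exon length came out as a whole multiple of 1 constant per library for 96.5% to 96.8% of values above 0 (tolerance 0.01), which gave depth and reads per gene. For Msln it did not.

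Symbols were found for 54409 IDs. Groups come from the titles. The members and lists were chosen with earlier results of these data known. Named genes are the members, Cacnb3, the 4 most abundant genes and the near-0 markers of each list, family genes with a mean of at least 1 FPKM and the 5 genes most like Krt19, Msln and Upk3b; others are marked as picked later.

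Genes were tested with limma 3.58.1 (R 4.3.3) on log2(FPKM + 1), with trend and robust moderation, Benjamini-Hochberg adjusted over 11864 genes. Fold changes on this scale understate those of low genes. Same-numbered libraries deviated together from their group means (correlations across genes 0.41, 0.75, 0.40 and 0.52). The split between the replicate sets, shared by both genotypes, can give such values by itself. Libraries of different numbers within a set were not compared in this way. The correlations thus cannot show whether the numbers pair the libraries. Pairing by number was an assumption of the fits that used the replicate block or the replicate number as the unit. The comparison of the replicate sets was refitted, as a choice made after seeing the data, on the mean of the libraries of each number. Confidence intervals are those of limma, from the spread between libraries, and limits from 0 reads cover counting error only. Python 3.11.15 was used for tables.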

Additional observations from a re-analysis of the deposited data

Results flagged for a closer look

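In the libraries labelled Cavb3 KO, the lowest level of Lgals3 lay far from the rest: replicate 4 was at 30.7 FPKM and the other 3 between 45.9 and 48.9 FPKM. Without replicate 4 the ratio of its means was 2.002 in place of 1.83. Krt7 and Upk3b had their highest value in replicate 4 labelled Cavb3 KO, at 0.0181 FPKM from 3 reads and 0.0482 FPKM from 4 reads, with no read in the other 3 libraries of that group. With 0 reads in those 3 libraries any read at all gives such a gap, so nothing is read from it. A gap like that of Lgals3, judged by Dixon's test at 95%, turns up by chance in about 1 in 20 groups, and 20 groups were checked.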

How the results depend on the processing

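The 5 tested members kept the direction of their genotype difference in all 20 alternatives each. For these 5 the groups did not overlap, so leaving out libraries could not reverse the direction. The replicate block and the set term leave the estimate unchanged in this design. The kept direction is thus no independent evidence. Krt19 lay between 0.98 and 1.45 on the log2 scale, Dsp between 0.87 and 1.31, Lgals3 between 0.65 and 1.01, Aqp1 between 0.50 and 2.46 and Wfdc2 between -0.54 and -0.35. The count of genes called between the genotypes was 0, except 75 with the replicate set as a term and 6 in replicates 3 and 4 alone, and the count of members called was 0 except 2 with that term. Leaving out any single library gave 0 genes and 0 members, and the replicate block gave 0 genes and 0 members. Between the replicate sets, 3530 genes passed with a filter at an FPKM of 5, where fewer genes were tested, 5082 with the replicate block, added after seeing the data, and 3901 to 5518 when a library was left out. Members called in that comparison numbered 0 to 1 without a single library: Krt19 passed without replicate 4 labelled Cavb3 KO (0.36, adjusted p = 0.0133) and Wfdc2 without wild type replicate 3 (-0.20, adjusted p = 0.0461). The value of Lgals3 there, -0.06, ran from -0.16 to 0.10 without a single library and was above 0 without replicate 4 labelled Cavb3 KO. The interaction was called for 2 genes with a pseudocount of 0.1, with array weights and with limma-voom, and for 1 to 58 genes without a single library, 58 without wild type replicate 2. It was called for none of the members in any of these. The genotype difference of Cacnb3, -0.02, was 0.60 in replicates 3 and 4 alone. The causes were not tested. The ratios of the members' means were within the spread of the libraries with TPM in place of FPKM. Krt8, Krt7 and Upk3b, with 7 to 9 reads in all, are limited by depth.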
